A study of Mus musculus with 6 samples.

Results

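Box H/ACA small nucleolar RNAs and Cajal body RNAs were examined in the duodenum of male mice that lack 1 working copy of Polr3b. Members were the transcripts of the deposited table whose Ensembl identifier, read without its version, belongs in the GENCODE M21 mouse annotation to a gene with a name beginning with Snora or Scarna, or to a transcript of the type scaRNA. This gave 51 members among the 1630 transcripts of the table. Of these, 36 carried a Snora name and 15 were Cajal body RNAs, of which 4 had a Scarna name and 11 only a provisional Gm name. The annotation holds 95 transcripts that meet the rule, and those outside the table were not analysed here.

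The study asked which RNAs change when RNA polymerase III (Pol III), the enzyme that makes tRNAs, 5S rRNA and other short RNAs, is partly lost. Small RNA was sequenced from the duodenum, the first stretch of the small intestine, of 3 heterozygous males labelled C57BL/6N-Polr3b<em7(IMPC)Tcp>/Tcp and 3 wild-type males labelled C57Bl/6N. The heterozygotes carry a frameshift insertion in 1 copy of Polr3b, which encodes the second largest Pol III subunit, in every tissue of the body. No further treatment separates the groups, all 6 mice are males, and the age of these mice is not given in the sources used here. The study's methods state that mice were fasted overnight before the duodenum was taken. By the study's methods, heterozygous mice came from a heterozygous parent and wild-type mice from wild-type parents, each mated with wild-type C57Bl/6N, so parentage and genotype cannot be told apart. The values are estimated counts per transcript, which summed to between 2114055 and 6037849 per mouse over the transcripts of the table, and the Polr3b mRNA is too long to be among them. As a check of the tissue, all 9 listed microRNA hairpins of intestinal epithelium were in the table, at a summed level of 6.09 to 8.85 counts per 1000000 (CPM) in heterozygotes and 3.89 to 20.9 CPM in wild type. Only Mir192 of these was counted in every mouse, with 5 to 43 counts, and the other 8 were at 0 in at least 1 mouse, all 8 of them in heterozygous mouse 2. Of muscle and stroma, 2 of 7 hairpins were in the table, at a sum of 0.661 to 2.03 CPM in heterozygotes and 1.11 to 5.23 CPM in wild type, and Mir143 was counted in every mouse, with 2 to 21 counts. Of immune cells 3 of 6 were (0.331 to 2.03 and 0 to 4.23 CPM), of pancreas 1 of 4 (0 to 2.54 and 0 to 0.498 CPM) and of liver 0 of 1.

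H/ACA RNAs fold into hairpins joined by a hinge and closed by a short tail, and they carry a box H in the hinge and the triplet ACA just before the end. Bound by dyskerin and its partners, each hairpin pairs with a target RNA and directs the conversion of 1 chosen uridine to pseudouridine. In the nucleolus the targets are ribosomal RNAs, and a few members such as the U17 RNAs help to cut the ribosomal precursor instead. Cajal body RNAs stay in the Cajal body and guide the modification of spliceosomal snRNAs, some as H/ACA RNAs, some as box C/D RNAs, which direct methylation of the ribose, and some as both in 1 molecule. Most mammalian members are cut from introns of genes that RNA polymerase II transcribes, so they are not themselves products of Pol III.

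Sequences are printed for the members on which the results turn, as DNA letters of the GENCODE M21 transcripts. Their positions refer to GRCm38, whereas the counts were made on GRCm39, and the table lists later versions of the same identifiers. Snora21, with the highest level per base, lies at chr11:97781639-97781775 on the minus strand, and Snora73b, a U17 RNA, at chr4:132352322-132352526 on the minus strand. Snora9 at chr11:6528033-6528165 on the minus strand and Snora47 at chr13:95330600-95330737 on the plus strand were higher in each heterozygous mouse than in any wild-type mouse. Gm25820 at chr3:88693930-88694057 on the plus strand and Gm23370 at chr1:127331812-127331941 on the plus strand are near-identical Cajal body RNAs with unlike counts. Scarna8 at chr4:86586453-86586583 on the minus strand was the most abundant Cajal body RNA per base, and Gm25395 at chr1:87776938-87777209 on the plus strand the longest. Capitals mark the match to the box H pattern ANANNA nearest to the middle, taking the leftmost where matches overlap, and the ACA near the end. In Gm25395 they mark TGATGA near the start and CTGA near the end, the core of boxes C and D.
Snora21: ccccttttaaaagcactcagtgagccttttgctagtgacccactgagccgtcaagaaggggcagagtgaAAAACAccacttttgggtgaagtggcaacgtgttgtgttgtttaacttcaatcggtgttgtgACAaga
Snora73b: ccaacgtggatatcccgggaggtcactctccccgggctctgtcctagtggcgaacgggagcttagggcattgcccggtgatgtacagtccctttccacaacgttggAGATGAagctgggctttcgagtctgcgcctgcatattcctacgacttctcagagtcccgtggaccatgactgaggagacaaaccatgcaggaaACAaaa
Snora9: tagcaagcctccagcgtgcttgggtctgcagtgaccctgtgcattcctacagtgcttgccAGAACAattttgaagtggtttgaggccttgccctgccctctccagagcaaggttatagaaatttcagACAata
Snora47: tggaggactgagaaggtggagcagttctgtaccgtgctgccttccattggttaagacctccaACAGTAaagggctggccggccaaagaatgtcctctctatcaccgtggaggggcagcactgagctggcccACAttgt
Gm25820: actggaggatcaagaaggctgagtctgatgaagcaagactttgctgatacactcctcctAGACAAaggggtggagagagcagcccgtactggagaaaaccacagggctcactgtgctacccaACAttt
Gm23370: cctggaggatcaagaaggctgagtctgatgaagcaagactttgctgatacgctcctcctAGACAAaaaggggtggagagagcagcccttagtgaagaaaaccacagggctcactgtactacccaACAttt
Scarna8: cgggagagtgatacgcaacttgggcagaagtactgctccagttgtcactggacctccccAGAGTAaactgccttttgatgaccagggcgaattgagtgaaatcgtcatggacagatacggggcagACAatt
Gm25395: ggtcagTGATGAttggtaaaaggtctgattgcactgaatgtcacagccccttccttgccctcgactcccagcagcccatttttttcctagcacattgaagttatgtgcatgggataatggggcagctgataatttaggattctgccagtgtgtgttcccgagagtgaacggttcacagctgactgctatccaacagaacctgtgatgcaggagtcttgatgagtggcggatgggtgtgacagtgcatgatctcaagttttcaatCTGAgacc

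The tail triplet was a regular feature of the Snora transcripts. ACA stood 1 to 5 bases before the end in 34 of 36 Snora transcripts, or 94.4%, in 10 of 15 Cajal body RNAs, or 66.7%, and in 4 of 76 box C/D snoRNAs (gene names beginning with Snord), or 5.26%. It was followed by 3 bases in 35 of the 44 members that had it, and Snora44 and Snora81 were the 2 Snora transcripts without it. Only the given strand was read, and box H was searched as ANANNA beginning after the first 50 and before the last 55 bases. Transcripts no longer than these margins together could not match. That holds for most box C/D snoRNAs, with a median of 79.5 bases, and for Scarna9 and Scarna17, with 70 and 79 bases. The pattern was found in 94.4% of Snora transcripts, 73.3% of Cajal body RNAs and 2.63% of box C/D snoRNAs, percentages that partly reflect length. It was also found in 50% of the 198 other snoRNA transcripts of the table, which have names outside the rule. Of those 198, 81 held both the middle pattern and the end triplet. These are matches of letters, not mapped binding sites.

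The Cajal body RNAs were of mixed build. TGATGA within the first 20 bases together with CTGA within the last 15 was found in Gm25395, Scarna6, Scarna9 and Scarna17, in 0 of 36 Snora transcripts and in 59.2% of box C/D snoRNAs. TGAG, the letters of the box that retains H/ACA RNAs in Cajal bodies, was present anywhere in 11 of 15 Cajal body RNAs, or 73.3%, in 6 of the 10 that carried the end triplet, in 47.2% of Snora transcripts and in 78.9% of box C/D snoRNAs, so the 4 letters alone did not separate the classes. Lengths ran from 127 to 205 bases for Snora transcripts (median 132.5) and from 70 to 272 for Cajal body RNAs (median 135), against a median of 79.5 for box C/D snoRNAs. The RNA had been selected for less than 200 nucleotides, and 4 members are longer than that: Snora73a, Snora73b, Scarna6 and Gm25395. The predicted folding energy per 100 bases had a median of -35.5 kcal/mol for Snora transcripts and -34.9 kcal/mol for Cajal body RNAs. Both were lower than the -23.6 kcal/mol of box C/D snoRNAs. Median GC content also differed, at 50.2%, 51.15% and 44.5% in that order. The part of GC content or length in the folding energies was not tested.

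**Figure D1:**
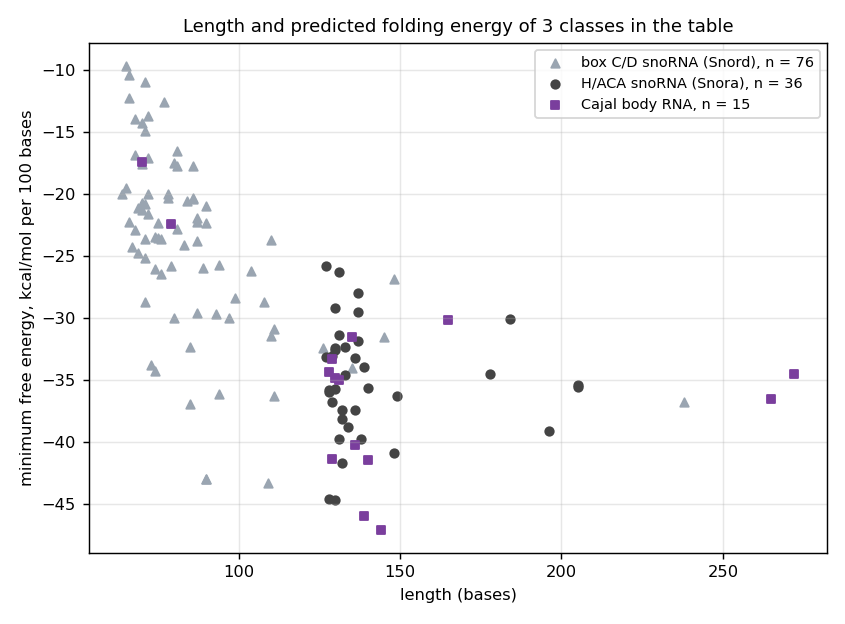
Length in bases on the horizontal axis and RNAfold minimum free energy in kcal/mol per 100 bases on the vertical axis, 1 point per transcript. The 36 Snora transcripts begin at 127 bases, 2 Cajal body RNAs lie among the box C/D snoRNAs below 80 bases, and 2 lie beyond 260 bases.

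Nearly all members sat inside other genes. A host gene on the same strand was annotated for 45 of 51 members. Read on a single host gene per member, 29 lay in introns of every transcript there. The other 16 lay in an intron of some transcripts and an exon of others. Snora74a, among the 29, has a further host, AC121821.1, with a transcript that holds its whole sequence. Ribosomal protein genes hosted 10 members and Snhg genes, whose spliced RNAs are mostly noncoding, hosted 8. Atg16l1 held Gm25395 and Scarna6, Snhg12 held Snora16a, Snora44 and Snora61, and the overlapping Rcc1 and Snhg3 held both Snora73 genes. Levels per length were higher in the members with a ribosomal protein host, with a median of 146.6 CPM per 100 bases, than in those of Snhg genes (56.0), other hosts (35.4) or no annotated host (7.90), with wide ranges in each group. These host groups are descriptions of unequal size, and no test was made on them.

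The members spanned more than 3 orders of magnitude only with Gm23119 included, as the next lowest stood at 1.18 CPM per 100 bases. Per 100 bases, over the mean of 6 mice, the 8 highest were Snora21 at 398.5 CPM, Snora81 at 345.8, Snora16a at 342.0, Snora30 at 316.2, Snora7a at 309.2, Snora75 at 275.2, Snora31 at 243.9 and Snora3 at 218.5. These are known as guides for pseudouridylation of rRNA. Their ranges over the mice overlapped from each to the next, so this order is not settled by 3 mice a group. In all, 14 members reached 100 CPM per 100 bases and 8 stayed below 10. The median was 61.5 CPM per 100 bases for Snora transcripts and 14.4 for Cajal body RNAs, of which Scarna8 was highest at 82.8 and Gm23119, with 2 counts in each of 2 wild-type mice and 0 elsewhere, lowest at 0.168. By counts, without regard to length, the 8 leading transcripts held 52.4% of all members' counts on average over mice, led by Snora81 with 9.38% and Snora21 with 8.26%.

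**Figure D2:**
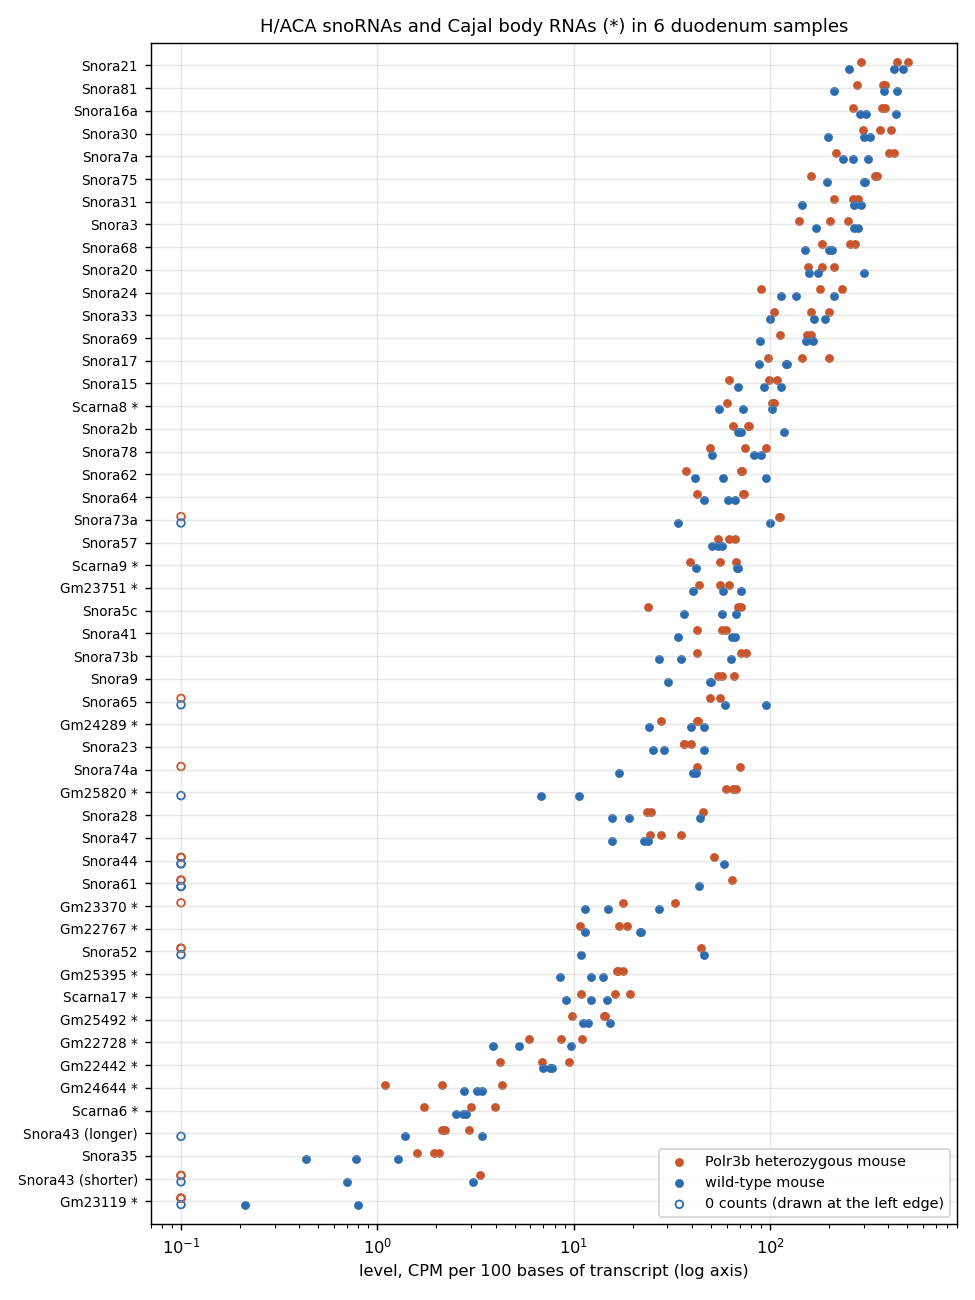
CPM per 100 bases on a log axis for the 51 members, sorted by their mean, with 1 point per mouse (orange heterozygous, blue wild type, open circles 0 counts). Orange and blue points overlap in nearly all lines, and several members have counts in some mice and 0 in others.

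The summed members took a small share of the table, which overlapped between the genotypes. They held 1.01%, 0.399% and 0.807% of the counts in heterozygous mice 1, 2 and 3, and 0.424%, 0.625% and 0.753% in wild-type mice 1, 2 and 3. The means were 0.738% ± 0.310 (SD, n = 3) and 0.600% ± 0.166 (SD, n = 3), a difference of 0.137 percentage points that was smaller than either SD. The share moves with a few very abundant transcripts. Leaving out the 10 most abundant of the table gave a mean of 1.69% ± 0.597 in heterozygotes and 1.24% ± 0.0691 in wild type (SD, n = 3 each), with heterozygous mouse 2, at 1.06%, below all wild-type mice and the others, at 1.77% and 2.25%, above them. In bulk tissue, fewer cells that make an RNA and less RNA per cell cannot be told apart.

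Within each genotype, 1 mouse had low values across the whole group. After normalization by the trimmed mean of M values (TMM), the members summed to 8064, 4864 and 7626 CPM in heterozygous mice 1 to 3 and to 4983, 7089 and 6727 CPM in wild-type mice 1 to 3. Heterozygous mouse 2 was below the member's own mean for 35 of the 39 tested members with counts in every mouse, and wild-type mouse 1 for 33 of 39, with median log2 deviations of -0.34 and -0.41. The same medians over all 560 tested transcripts were -0.09 and -0.09. The same 2 mice were also lowest of their genotype in related classes, so the low values were not particular to the members. Heterozygous mouse 2 and wild-type mouse 1 summed to 17333 and 17147 CPM for box C/D snoRNAs, against 21005 to 24757 in the other mice. For other snoRNAs they had 19640 and 23358 CPM against 25306 to 31194, and for snRNAs 47863 and 40971 CPM against 53821 to 70809. Heterozygous mouse 1 was below the mean for 2 of the 39, mouse 3 for 5, and wild-type mice 2 and 3 for 10 and 18. Heterozygous mouse 2 and wild-type mouse 1 also had the 2 smallest count totals, 2400082 and 2114055, and the part of depth was not tested. Expressed as shares of the summed counts of the 40 members with counts in every mouse, the values were steadier. Dividing by that sum takes out any shift that these members share in a mouse. The median within-genotype SD over 40 members was 0.41 on the log2 CPM scale and 0.20 on the scale of log2 shares.

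**Figure D3:**
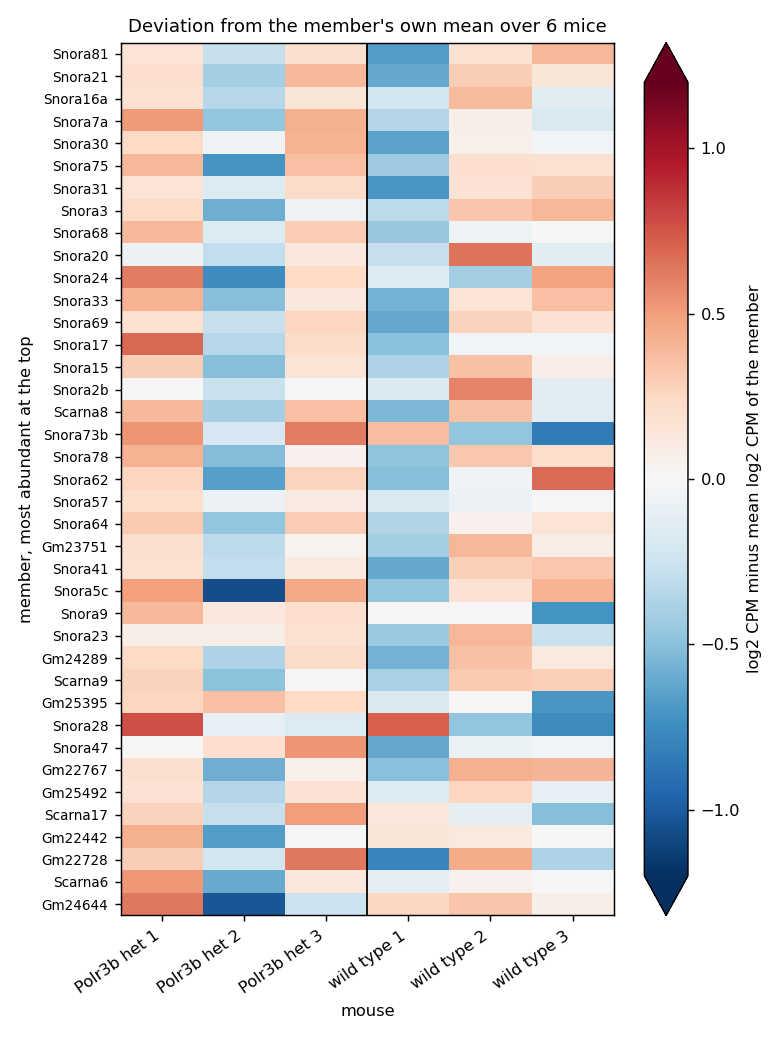
For the 39 tested members with counts in every mouse, the colour gives log2 CPM in a mouse minus the member's mean over 6 mice (red above, blue below), with members in rows by abundance and mice in columns. The columns of heterozygous mouse 2 and wild-type mouse 1 are blue for 35 and 33 of 39 members.

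No member passed the edgeR test between genotypes, and the change was smaller than its standard error in 37 of 46. Of the 51, 46 passed the filter on low counts (32 Snora and 14 Cajal body RNAs). With edgeR's quasi-likelihood test and Benjamini-Hochberg adjustment at 10% FDR, 0 of 46 were called, and 0 of all 560 tested transcripts (0%). At an unadjusted p under 0.05, 1 member was higher in heterozygotes, Gm25820, and 0 were lower, where 3.57% of all tested transcripts passed, 0.536% higher and 3.04% lower. The log2 fold change was above 0 for 30 of 46 members, or 65.2%, against 44.6% of all tested transcripts, and its median was 0.10 for members against -0.05 for all. DESeq2 called 1 member, Gm25820, both with its defaults, where 3 of 1614 transcripts (0.186%) were called, and on the filtered transcripts, where 3 of 557 (0.539%) were, and limma called 0 of 560. The share of members above 0 depended on scaling. With library totals alone, 41 of 46 (89.1%) were above 0, with a median of 0.32 where all transcripts had 0.14. With TMM over snoRNAs and Cajal body RNAs 23 of 46 (50%) were above 0, with a median of 0.01 where all transcripts had -0.11. That scale is set partly by the members themselves, which draws their median towards 0. The medians were 0.15 with the upper quartile, 0.15 with DESeq2's size factors and 0.05 with TMM over transcripts other than tRNAs. Without heterozygous mouse 2 the count above 0 was 45 of 50 tested, and without wild-type mouse 1 it was 20 of 47. The medians were 0.36 and -0.08, where all tested transcripts had -0.03 and -0.13, so the sign of the median rested on single mice. The members' median stayed above that of all tested transcripts with any 1 mouse left out.

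By class, the median log2 fold change was 0.10 for Snora transcripts, 0.02 for Cajal body RNAs, 0.01 for 75 box C/D snoRNAs, 0.07 for 133 other snoRNAs, -0.27 for 24 snRNAs and -0.23 for 12 microRNA hairpins. In none of these classes was a transcript called at 10% FDR with edgeR, and at an unadjusted p under 0.05 there were 0 Snora, 1 Cajal body, 0 box C/D, 3 other snoRNA, 0 snRNA and 0 microRNA transcripts. Of the transcripts of the type snRNA, 20 of 24 had a value below 0, as had 310 of all 560 tested transcripts. Differences between these medians were not tested.

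**Figure D4:**
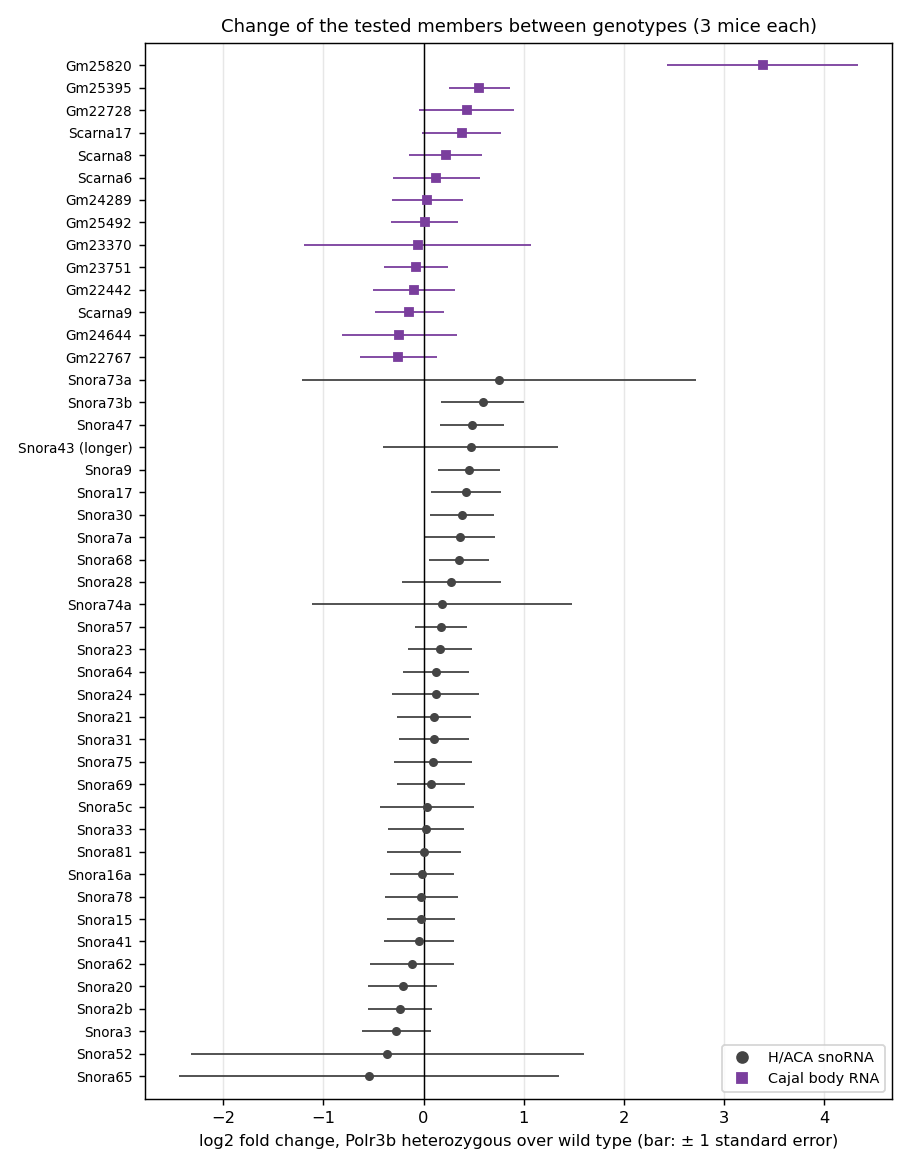
Log2 fold change of heterozygous over wild type for the 46 tested members, with bars of 1 standard error, Cajal body RNAs at the top and Snora transcripts below. Most bars cross 0, Gm25820 stands at 3.38, and the widest bars belong to members with 0 counts in some mice.

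Among RNAs of ribosomal precursor processing, the U17 RNAs Snora73a and Snora73b are required for early cleavage of the precursor. They share 98.0% of 202 aligned bases, with 4 differences. Snora73b had 145.0, 86.8 and 154.4 CPM in heterozygous mice 1 to 3 and 129.6, 72.0 and 55.7 CPM in wild-type mice 1 to 3. The groups overlap, and the log2 fold change was 0.59 (SE 0.41, adjusted p = 0.999 by edgeR's quasi-likelihood test). Snora73a had 228.5, 0 and 230.8 CPM in heterozygotes and 204.7, 0 and 69.4 CPM in wild type. It was thus at 0 in 1 mouse of each genotype. In the other 4 mice Snora73a took between 55.5% and 61.2% of the pair. The pair summed to 373.5, 86.8 and 385.2 CPM against 334.3, 72.0 and 125.1 CPM, so the 2 mice without Snora73a counts also had the lowest sums. The log2 fold change of the sum was 0.68 (SE 0.72), with an exact two-sided permutation p of 0.3, where 0.1 is the smallest that 3 against 3 mice allow.

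Snora62, the E2 RNA, which has been tied to precursor processing, had 105.8, 55.8 and 106.8 CPM in heterozygotes and 61.7, 85.9 and 142.3 CPM in wild type. Both groups covered the same range, with a log2 fold change of -0.11 (SE 0.42). Of the other members with a textbook role, Snora64, a guide to the large-subunit rRNA, had a log2 fold change of 0.12 (SE 0.33) and ranges of 56.9 to 98.9 CPM in heterozygotes and 61.7 to 89.1 CPM in wild type. Snora63, Scarna2, Scarna10 and Scarna13 were not analysed here.

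None of the 8 members with the highest level per length passed the edgeR test at 10% FDR or had an unadjusted p under 0.05. Snora21 had 608.7, 397.5 and 691.7 CPM in heterozygotes and 345.4, 647.9 and 584.8 CPM in wild type. Its lowest values were those of heterozygous mouse 2 and wild-type mouse 1, and the log2 fold change was 0.11 (SE 0.37). Snora81 had 671.3, 494.5 and 684.8 CPM against 374.9, 680.0 and 787.7 CPM, with a log2 fold change of 0.01 (SE 0.37). Snora16a had 520.5, 361.5 and 506.9 CPM against 389.3, 595.9 and 416.7 CPM, with a log2 fold change of -0.01 (SE 0.32). The remaining members of the 8 highest per length lay between -0.27 (Snora3, SE 0.35) and 0.39 (Snora30, SE 0.32), with Snora7a at 0.36 (SE 0.35), Snora31 at 0.10 (SE 0.35) and Snora75 at 0.09 (SE 0.39). All 8 overlapped between the genotypes, and all had an adjusted p of 0.999 with edgeR.

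Every heterozygous mouse was above every wild-type mouse for 4 of 46 tested members, where 2.14% of all tested transcripts had this order, and for 0 of 46 every heterozygous mouse was below, where 4.11% did. The 4 were Snora9, Snora47 and the Cajal body RNAs Gm25395 and Gm25820. Snora9 had 86.9, 72.6 and 76.1 CPM in heterozygotes and 66.7, 66.0 and 40.0 CPM in wild type, a log2 fold change of 0.45 (SE 0.31, unadjusted p = 0.189). The nearest values of the 2 groups, 72.6 and 66.7 CPM, lay closer together than the lowest and highest mouse of either group. Snora47 had 33.7, 38.6 and 48.6 CPM against 21.7, 31.6 and 32.9 CPM, a log2 fold change of 0.48 (SE 0.32, unadjusted p = 0.173), with 33.7 and 32.9 CPM as the nearest pair. Both had an exact two-sided permutation p of 0.1, the smallest possible, and an adjusted p of 0.999 with edgeR. The order depended on scaling. Snora47 overlapped with library totals and with the upper quartile, Snora9 and Snora47 with TMM over transcripts other than tRNAs, and Snora9, Snora47 and Gm25395 with TMM over snoRNAs and Cajal body RNAs. With a mouse left out in turn, the log2 fold change ran from 0.25 to 0.56 for Snora9, lowest without wild-type mouse 3, and from 0.31 to 0.60 for Snora47, lowest without wild-type mouse 1. Leaving a mouse out makes this order more frequent over the whole table. Without heterozygous mouse 2, 19 of 50 members were higher and 0 lower, where 11.3% of all tested transcripts were higher and 7.68% lower. Without wild-type mouse 1, 7 of 47 were higher and 4 lower, where 6.75% and 16.2% of all tested transcripts were.

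The lower Snora transcripts with the smallest p were Snora3, Snora2b and Snora20, which all are guides to rRNA. Snora2b had 106.6, 88.8 and 105.1 CPM in heterozygotes and 94.6, 161.4 and 97.4 CPM in wild type, with a log2 fold change of -0.23 (SE 0.32). Its high wild-type value was that of mouse 2 alone. Snora20 showed the same pattern, with 234.7, 200.0 and 269.5 CPM against 203.0, 386.5 and 224.7 CPM and a log2 fold change of -0.21 (SE 0.34). Without wild-type mouse 2 the log2 fold changes became 0.06 for Snora2b and 0.14 for Snora20. Snora3 had 330.2, 186.3 and 267.8 CPM against 225.8, 352.1 and 368.2 CPM. Snora3 and Snora2b each have a near-identical transcript among the other snoRNAs of the table, with 23 to 230 and 108 to 401 counts per mouse, so their counts are uncertain.

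Among the Cajal body RNAs, Gm25820 was the single member with an unadjusted p under 0.05. It lies in an intron of Khdc4, and its near-identical partner Gm23370 in an intron of Mgat5, with 7 differences over 129 aligned bases (94.6% identity). Salmon assigns reads that fit both by estimation. Gm25820 had 76.6, 83.3 and 86.0 CPM in heterozygotes and 0, 8.72 and 13.6 CPM in wild type. Gm23370 had 42.7, 0 and 23.1 CPM in heterozygotes and 19.5, 35.4 and 14.8 CPM in wild type. The division between them thus varied between mice. Gm25820 received 64.2%, 100% and 78.8% of the pair in heterozygotes and 0%, 19.8% and 47.9% in wild type. The sums of the pair were 119.2, 83.3 and 109.1 CPM against 19.5, 44.1 and 28.4 CPM, also without overlap. The fold change was 3.38 on the log2 scale for Gm25820 alone (SE 0.96, unadjusted p = 0.00953, adjusted p = 0.999 with edgeR's quasi-likelihood test) and 1.76 for the sum (SE 0.38), which had an unadjusted p of 0.0023 and an adjusted p of 0.998 with edgeR. With DESeq2, Gm25820 was called at 10% FDR, with an adjusted p of 0.0616 under its defaults and 0.0425 on the transcripts that edgeR tested. Leaving out a mouse at a time gave log2 fold changes of 2.86 to 4.16 for Gm25820. Over all alternatives the adjusted p ran from 0.0425 to 0.9998. The exact two-sided permutation p of the sum was 0.1.

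Gm25395, which shares the host Atg16l1 with Scarna6, had 45.6, 48.7 and 45.0 CPM in heterozygotes and 33.4, 38.3 and 23.2 CPM in wild type, a log2 fold change of 0.55 (SE 0.30, unadjusted p = 0.112, adjusted p = 0.999 with edgeR). The heterozygous mice lay close together and above all wild-type mice. Scarna6, known as U88, had 10.6, 4.57 and 7.94 CPM in heterozygotes and 6.67, 7.47 and 7.25 CPM in wild type, so the wild-type mice lay inside the heterozygous range and the log2 fold change was 0.13 (SE 0.43). Its counts per mouse were 9 to 55. The 2 RNAs of this host were thus unlike in order between the genotypes, though the difference was not tested.

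Scarna8, known to guide pseudouridylation of U2 snRNA, had 136.9, 78.7 and 134.6 CPM in heterozygotes and 71.7, 133.5 and 95.0 CPM in wild type, with overlap and a log2 fold change of 0.22 (SE 0.36). Scarna9, a guide to ribose methylation of U2 snRNA, had 46.9, 27.4 and 39.0 CPM against 29.5, 48.3 and 47.2 CPM and a log2 fold change of -0.14 (SE 0.35). Scarna17, a box C/D guide to spliceosomal snRNAs, had 12.9, 8.63 and 15.2 CPM against 11.7, 9.71 and 7.25 CPM and a log2 fold change of 0.38 (SE 0.39). All 3 changes were smaller than their standard errors. Of the Cajal body RNAs with only a provisional name, Gm22767 had 30.8, 17.8 and 28.1 CPM against 18.9, 36.4 and 35.8 CPM, a log2 fold change of -0.25 (SE 0.39). Gm23751, at 72.9 CPM in heterozygotes and 76.7 CPM in wild type on average, had -0.07 (SE 0.32), and Gm24289, at 50.8 and 49.5 CPM, 0.04 (SE 0.35). Lower in level were Gm25492 (0.01, SE 0.34), Gm22728 (0.43, SE 0.47), Gm22442 (-0.10, SE 0.41) and Gm24644 (-0.24, SE 0.57), each a log2 fold change. All of these overlapped between genotypes.

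A further pattern concerned single mice, not genotypes. Of the 46 members with at least 50 counts in a mouse, 8 had 0 counts in another mouse, against 44 of 523, or 8.41%, of all transcripts of the table with at least 50 counts in a mouse. The 8 were Snora44, Snora52, Snora61, Snora65, Snora73a, Snora74a, Gm25820 and Gm23370. Of the 76 box C/D snoRNAs, 73 reached 50 counts in a mouse and 0 of these were at 0 in another. Snora44 had 346 counts in heterozygous mouse 1 and 135 in wild-type mouse 1, and 0 in the other 4 mice. Snora61 had 433 and 101 counts in the same 2 mice and 0 in the other 4. Both lie in Snhg12, whose other member Snora16a was counted in all 6 mice, with 700 to 2815 counts. Snora52 had 315 counts in heterozygous mouse 1, 60 in wild-type mouse 2 and 428 in wild-type mouse 3, and 0 in the others.

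Snora65 and Snora74a, both guides to the large-subunit rRNA, varied in the same way. Snora65 had 375, 127 and 0 counts in heterozygotes and 223, 308 and 0 in wild type. Snora74a, the U19 RNA, had 435, 0 and 415 counts against 60, 318 and 554. Neither followed genotype, and the log2 fold changes of -0.55 (SE 1.90) for Snora65 and 0.18 (SE 1.30) for Snora74a have wide errors. Sequence overlap accompanied the pattern. Of the 8, 5 are held whole, letter for letter, in another annotated transcript of at least 300 bases (Snora44 and Snora61 in Snhg12, Snora52 in Rplp2, Snora65 in Rpl12, Snora74a in AC121821.1), and transcripts of that length had been removed from the table. The other 3, Snora73a, Gm25820 and Gm23370, have a near-identical member. Of the remaining 38 members with at least 50 counts, 12 met either condition, 11 by a containing transcript and 1 by a near-identical member, among them Snora16a. These 12 leave out near-identical transcripts that are not members. Snora21, Snora41, Snora5c and Snora2b, without a containing transcript, each have such a copy among the other snoRNAs and were counted in every mouse. Of the box C/D snoRNAs that reached 50 counts, 30 are held whole in such a longer transcript, and 0 of these were at 0 in any mouse. Of the 198 other snoRNA transcripts, 128 reached 50 counts and 9 of these were at 0 in another mouse, among them 6 of the 44 that are held whole in a longer transcript. Whether the 0 values come from how reads were divided between transcripts was not tested.

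**Figure D5:**
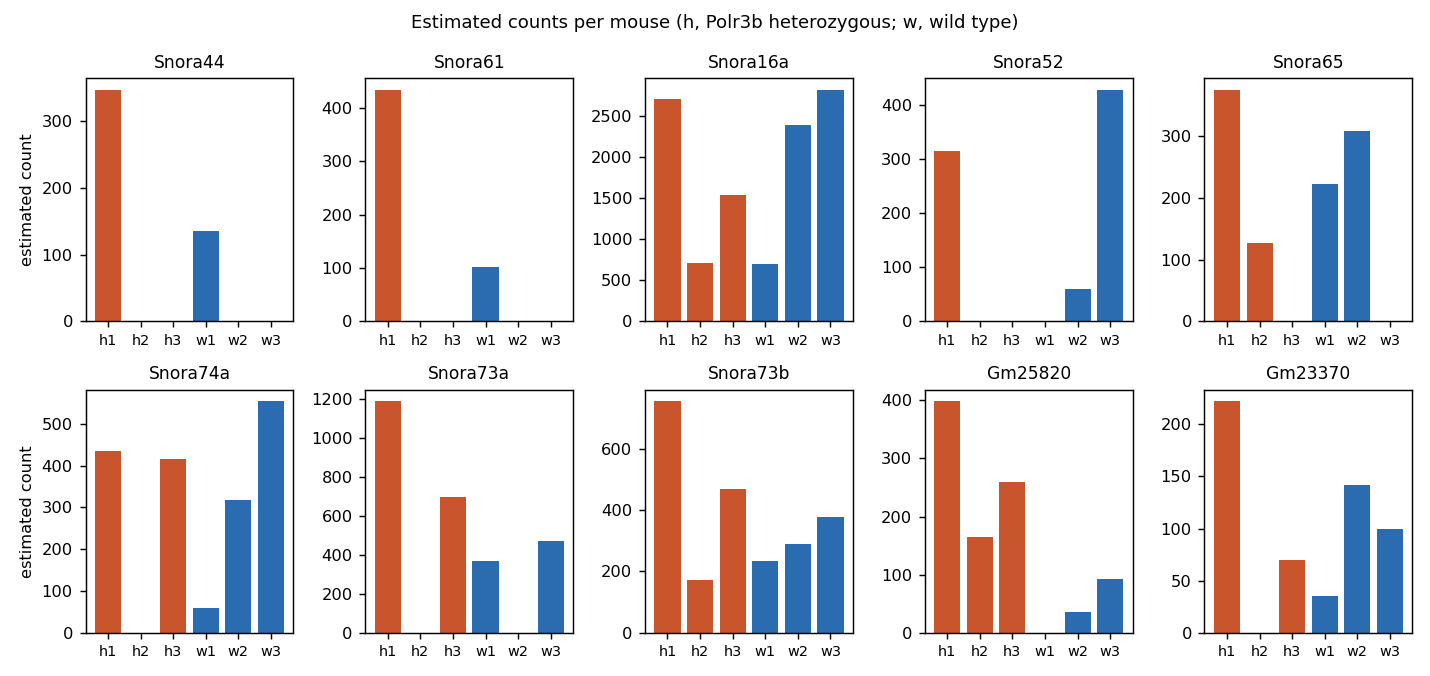
Estimated counts per mouse as bars from 0, for the 8 members with at least 50 counts in a mouse and 0 in another, and for Snora16a (same host as Snora44 and Snora61) and Snora73b (copy of Snora73a). Orange bars are heterozygous and blue bars wild-type mice. Snora44 and Snora61 are counted in the same 2 mice, 1 of each genotype.

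The 5 members that did not pass the filter were Snora44 and Snora61, described above, Snora35, the shorter of the 2 Snora43 transcripts and Gm23119. Snora35 had 13, 4 and 8 counts in heterozygotes and 1, 4 and 11 in wild type. The shorter Snora43 transcript, which is contained whole in the longer one, had 22, 0 and 0 counts against 7, 0 and 6. On the CPM scale Snora35 ran from 2.03 to 2.65 in heterozygotes and from 0.556 to 1.63 in wild type, without overlap but at counts too low for the test. Gm23119 and the shorter Snora43 transcript showed no difference detectable at this depth.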

How the data were processed

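Small RNA from the duodenum of 3 Polr3b heterozygous and 3 wild-type males was analysed. The authors selected RNA below 200 nucleotides and removed base methylation. After trimming with Cutadapt, Salmon estimated transcript abundance against an index of all GRCm39 RNAs. The authors deposited these estimated counts, unnormalized and as whole numbers, for transcripts under 300 bases. Heterozygous columns carry the authors' short name of a fly Pol III mutant and were taken as the only remaining group. Which heterozygous animal each represents is unknown, and heterozygous mice are numbered by column. The members, lists and tests were chosen with earlier results of these data known.

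All transcripts entered a single quasi-likelihood fit (edgeR 4.0.16, R 4.3.3) after filterByExpr at a minimum count of 10 and TMM scaling, with genotype as the only term and legacy = FALSE. Benjamini-Hochberg adjustment ran over the 560 transcripts that passed, at a threshold of 0.1. The standard error is the fold change over the square root of F. CPM are TMM-scaled counts per 1000000 over the tested transcripts. Exact permutation tests used the 10 distinct splits of 6 mice. Alternatives were DESeq2 1.42.0, limma 3.58.1, other filters, scalings and left-out mice, and, chosen after seeing the data, DESeq2 on the tested transcripts, TMM over snoRNAs and Cajal body RNAs, sums of near-identical copies for the order of the mice, and the column number as a block. The test was first run on simulated counts.

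Names, positions and sequences came from GENCODE M21 (GRCm38), joined by identifier without version, which found 1136 of 1448 Ensembl identifiers. Near-identical means at least 90% identity over 80% of the length (blastn 2.17.0). Folding energies used RNAfold 2.7.2. Named were the 4 members with the smallest p in each direction, the 8 highest levels per 100 bases, all tested Cajal body RNAs, members without overlap, those with a textbook role, and near-identical copies. Members with 0 counts in some mice despite at least 50 in another, and those below the filter, were named after their values were seen.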

Additional observations from a re-analysis of the deposited data

How the results depend on the processing

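The labels give the heterozygous mice no replicate number, but the column names of both genotypes end in 1 to 3. Deviations from the genotype means over the 560 tested transcripts correlated at 0.0157, -0.0811 and 0.107 (Pearson) between same-numbered columns, and not every column correlated best with its own number, so the numbers were not taken as pairs. Over the 46 tested members alone the Pearson correlations were 0.0553, 0.614 and 0.502. By rank (Spearman) they were 0.226, 0.348 and 0.184 over the members and -0.215, -0.300 and -0.0913 over all tested transcripts. A fit with this number as a replicate block, chosen after seeing the data, moved the count at p under 0.05 from 20 to 6 over all tested transcripts and left 0 members called at 10% FDR, 1 (Gm25820, log2 fold change 3.98) at p under 0.05, and a median of 0.0586. It turned Snora74a to -0.50.

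The count at 10% FDR was 1 (Gm25820) with both forms of DESeq2. The count at p under 0.05 was 0 of 36 members with at least 10 counts in every mouse, which removes Gm25820. Without heterozygous mouse 1 it was 2 of 45, and without wild-type mouse 1 it was 2 of 47. With any other mouse left out it was 1. The share of all tested transcripts at this p is not given for these fits, so these counts have no background beside them. Members without overlap numbered 7 of 46 with DESeq2's size factors, where 8.21% of all tested transcripts had none, and 4 to 19 with a mouse left out, where 10.4% to 22.9% did. The difference in share was 0.448 points without the 10 most abundant transcripts and 0.00265 to 0.307 with a mouse left out, the lowest without heterozygous mouse 1. With a mouse left out, the median log2 fold change ran from -0.08 to 0.36, and over all tested transcripts from -0.13 to 0.01. The causes were not tested.

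Of 32 named members, 13 kept their sign under the alternatives and 19 did not. With library totals, log2 fold changes turned to 0.00723 (Snora20), 0.22 (Snora16a), 0.0821 (Scarna9), 0.14 (Gm23751), 0.37 (Gm23370), 0.17 (Gm22442), 0.0621 (Gm24644) and 0.0744 (Snora62). With TMM over snoRNAs and Cajal body RNAs they turned to -0.0502 (Snora81), -0.0047 (Snora75), -0.0228 (Gm24289) and -0.0662 (Gm25492), and without tRNAs in the TMM to -0.0089 (Snora81) and -0.0179 (Gm25492). Snora16a turned to 0.0535 with DESeq2's defaults, 0.0417 with DESeq2 on the tested transcripts, 0.0411 with its size factors, 0.0376 with at least 1 count and 0.0271 with the upper quartile. Gm23751 turned to 0.0022 with DESeq2's defaults, Gm23370 to 0.0052 with at least 1 count, and Snora81 to -0.0020 with at least 10 counts in every mouse. With limma, Snora65 turned to 1.38 and Snora74a to -1.50. Leaving out 1 mouse at a time gave ranges of log2 fold changes of -0.38 to 0.0635 for Snora2b, -0.39 to 0.14 for Snora20, -0.13 to 0.31 for Snora21, -0.26 to 0.23 for Snora81, -0.14 to 0.20 for Snora16a, -0.0913 to 0.38 for Snora75, -0.16 to 0.29 for Snora31, -0.34 to 0.0447 for Scarna9, -0.27 to 0.13 for Gm23751, -0.19 to 0.24 for Gm24289, -0.96 to 0.51 for Gm23370, -0.0798 to 0.17 for Gm25492, -0.40 to 0.14 for Gm22442, -0.89 to 0.0578 for Gm24644, -0.17 to 0.38 for Scarna6, -0.36 to 0.28 for Snora62, -0.0237 to 0.34 for Snora64, -1.14 to 0.24 for Snora65, -0.63 to 0.77 for Snora74a. Depth limits members under about 10 counts in a mouse.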
